A study of Homo sapiens with 10 samples.

Results

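The machinery that cleaves nascent RNA, adds the poly(A) tail and ends transcription was examined as a set of 34 genes, through the 384 poly(A) 3′-seq peaks that lay in their bodies or up to 600 bp past their 3′ ends, of 178837 peaks in the deposited list. A peak was given to a gene by its summit, and gene bodies were those of GENCODE 44 on GRCh38. The 34 genes were named for their roles, at a time when earlier results of these data were known, and the rule itself used no measured value. The list came from IMR-32, a human neuroblastoma cell line, in which CDK12 or CDK13, kinases of the RNA polymerase II C-terminal domain, had been depleted with shRNAs. Its 10 libraries comprised 4 from cells carrying shCDK12 (sh22 and sh98, 2 each), 4 from cells carrying shCDK13 (sh701 and sh704, 2 each) and 2 from shGFP control cells, all of them transduced with a pLKO.1 vector and selected with puromycin. The authors downsampled the libraries to a common size, because they came from different batches, merged them and called peaks once, so that the list holds no value per library and no strand. Knockdown and control therefore could not be compared, and each statement below is about the pooled cells. Of 5 genes that mark noradrenergic neuroblastoma cells (PHOX2A, HAND2, GATA3, ISL1 and DBH), all 5 had a peak in their last exon or at its end, as 70.9% of all protein-coding genes did.

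A eukaryotic mRNA gets its 3′ end when CPSF recognises a hexamer, most often AAUAAA, a short way upstream of the cleavage site, CstF binds U- and GU-rich RNA downstream, and CFIm binds UGUA further upstream. The CPSF endonuclease then cuts, poly(A) polymerase adds the tail, and PCF11 and XRN2 help the polymerase to leave the DNA. When the same reaction takes place at a site inside an intron, the transcript ends early, and PCF11, CSTF3 and RBBP6 are known to hold their own levels in check through such early sites.

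The height of each peak is given as its pileup, the number of distinct read positions stacked at the summit after reads were extended to 100 bases. Pileup was recovered as a whole number from the deposited fold enrichment and p-value. Because only 1 read per position and strand is counted, a pileup cannot exceed 200 and levels off at strong sites, and it is a measure of peak height and not of how often a site is used. Along the MANE Select transcript of each gene, peaks were classed as terminal (summit from 200 bp before to 600 bp past the annotated end), last exon, other exon or intron. The 3′ edge of the peak on the strand of the gene was taken as the cleavage position. Oligo(dT) can also prime on A-rich stretches inside an RNA, so an intronic peak with 7 or more A in the 10 genomic bases downstream of that edge is called A-rich. An intronic peak that is not A-rich and has AATAAA or ATTAAA starting 10 to 50 bp upstream of the edge is called signal-bearing, or early for short.

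Of the 384 peaks, 33 were terminal (8.59%, 95% Wilson interval 6.18 to 11.8), 47 lay in the last exon (12.2%), 39 in other exons (10.2%) and 244 in introns (63.5%, 58.6 to 68.2). A further 8 lay before the MANE Select start and 13 past its end. These intervals cover counting error only. The split moved with the threshold and the annotation. At a −log10 q-value threshold of 20, 51 peaks were left, of which 27.5% were terminal and 27.5% intronic, and with classes taken from all annotated transcripts 23.7% of the 384 were terminal. Among all 19061 protein-coding genes with a MANE Select transcript, the intronic share was 69.3%, the terminal share 8.0%, the last-exon share 9.57% and that of other exons 4.65%. The share in other exons was higher in the members, whose interval was 7.52 to 13.6, and in a list of 34 other factors of termination, Integrator and nuclear RNA decay it was 10.5% (7.82 to 13.9). Intronic peaks were low. Their median pileup was 11 (range 3 to 44), whereas terminal peaks had a median of 23 (9 to 65) and last-exon peaks of 22 (8 to 83). The corresponding medians over all genes were 8, 20 and 18.

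**Figure D1:**
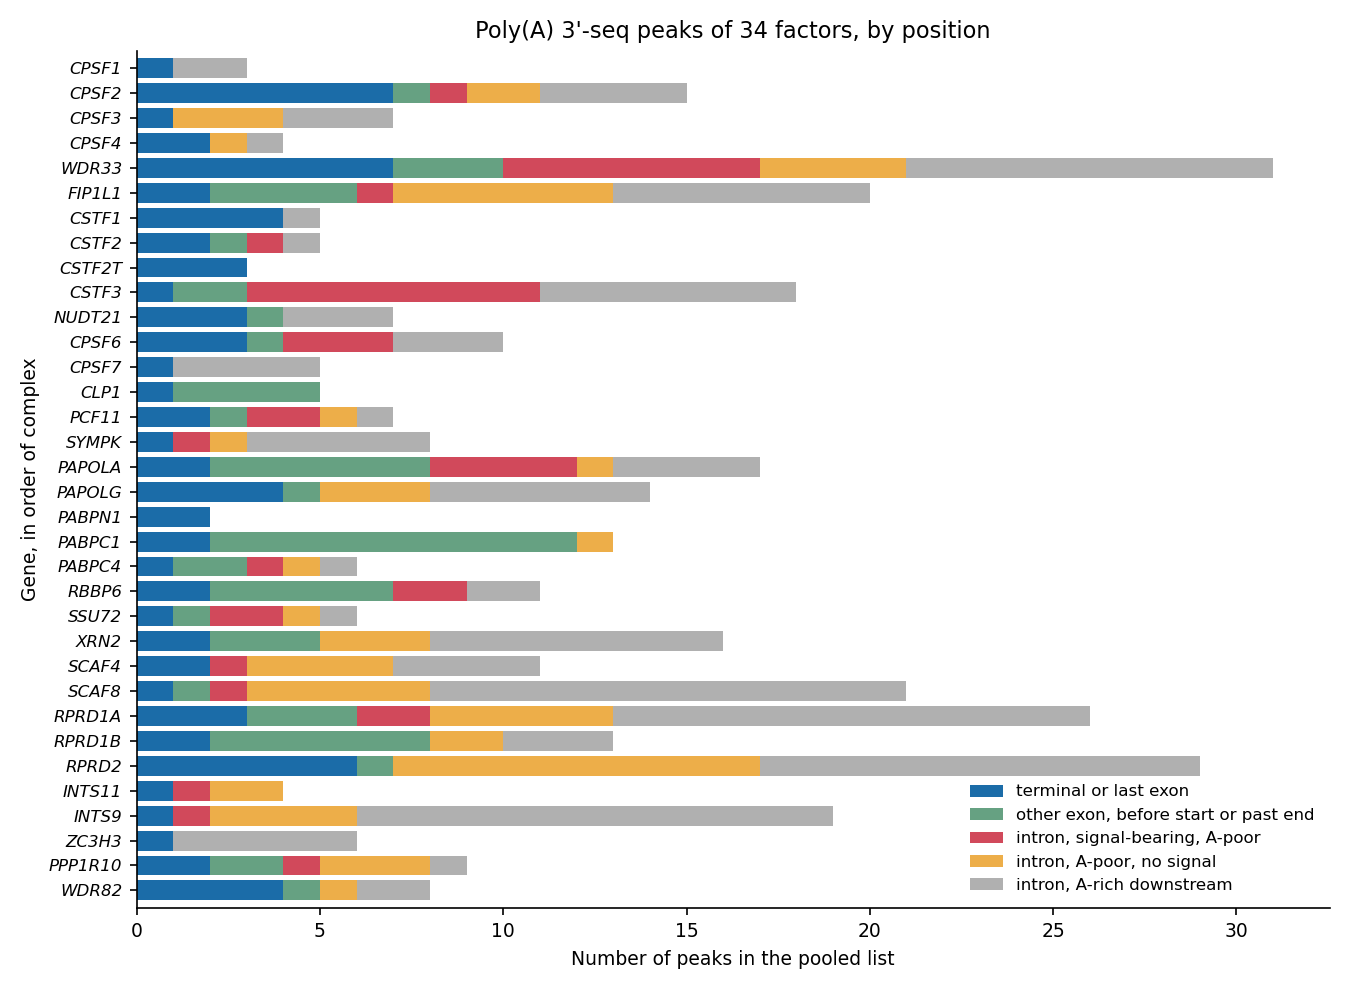
Horizontal bars give the number of peaks of each of the 34 genes (vertical axis, ordered by complex), split by position and sequence. WDR33 has 31 peaks, RPRD2 29 and RPRD1A 26, most of them intronic, and PABPN1 has 2, CPSF1 and CSTF2T have 3 each.

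Terminal peaks were found in 32 of the 34 genes, against 60.2% of all protein-coding genes, a figure that includes genes not expressed in these cells. They fell close to the annotated ends, with the 3′ edge within 5 bp of the MANE Select end for 19 of 33 terminal peaks (57.6%) and within 50 bp for 26 (78.8%). Over all genes these shares were 53.2% and 76.6%. AATAAA or ATTAAA stood in the signal window of 24 of the 33 (72.7%, 55.8 to 84.9), next to 69.8% of terminal peaks over all genes, and the hexamer began at a median of 22.5 bp upstream. AATAAA accounted for 23 of the 24. When 12 hexamers known to act as poly(A) signals were searched, 29 of the 33 had one (87.9%), next to 81.6% over all genes. None of the 33 was A-rich downstream (upper Wilson limit 10.4%), and 3.71% of terminal peaks over all genes were.

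The 2 genes without a terminal peak, SCAF4 and SCAF8, did have a peak at the end of the gene. Both encode proteins that bind the polymerase C-terminal domain and keep it from stopping at early poly(A) sites. SCAF4 had a 294 bp wide last-exon peak of pileup 30, whose 3′ edge lay 37 bp before the annotated end, 19 bp downstream of an AATAAA. SCAF8 had a 510 bp wide peak of pileup 35, whose edge lay 154 bp past the end, 36 bp downstream of an AATAAA. In each case the summit of a broad peak fell upstream of the terminal window, so the class and not the site was missing.

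The highest terminal pileups were those of WDR82 (65), CPSF7 (58) and PPP1R10 (54). WDR82 and PPP1R10 (PNUTS) are partners of protein phosphatase 1 in a complex that slows the polymerase at the end of genes, and CPSF7 is a large subunit of CFIm. The lowest were those of ZC3H3 (9), a zinc finger protein linked to poly(A) tails and mRNA export, SSU72 (11), a phosphatase of the C-terminal domain, and CPSF2 (12), the inactive partner of the endonuclease CPSF3. ZC3H3 had 5 intronic peaks besides, of pileup 5 to 17, all with 8 or more A downstream, and none with either hexamer. The 4 intronic peaks of CPSF7, of pileup 10 to 13, were A-rich as well. WDR82 had last-exon peaks of 22, 24 and 36, and neither these nor its terminal peak had either core hexamer, while the terminal peak of CPSF7 had AATAAA 46 bp upstream and that of PPP1R10 had neither. For CPSF2 the low value did not hold for the whole last exon, where 6 further peaks reached a pileup of 37. In all, 23 of the 34 genes had a last-exon peak outside the terminal window (67.6%, 50.8 to 80.9), and 58.4% of all genes with a terminal or last-exon peak did. It was higher than the terminal peak in 14 of the 21 members with both (66.7%, 45.4 to 82.8), next to 47.5% of all genes with both. PABPC1, the cytoplasmic poly(A) binding protein, had the highest of these, 83 at 205 bp before the annotated end against 28 at the end itself. NUDT21, the CFIm subunit that recognises UGUA, had 51 at 2432 bp before the end against 24 at the end. Every NUDT21 peak except the terminal one also lies in another gene of the same strand, so the peak of 51 cannot be assigned to NUDT21 alone. Reads that map to several places were kept by the authors, and PABPC1 and CSTF2T have close copies elsewhere in the genome, so their pileups are uncertain.

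Of the 244 intronic peaks, 140 were A-rich (57.4%, 51.1 to 63.4), a lower share than the 68.3% of all genes. It was 45.1% with a limit of 8 A and 42.9% among peaks with a −log10 q-value of 20 or more. Past the other edge of the peak, read on the opposite strand, 7 of the 244 were A-rich (2.87%, against 4.61% over all genes), so that for most peaks the A content lay on the strand of the gene. Signal-bearing peaks, described next, were 2 of these 7 (CSTF3 intron 3, pileup 16, and SYMPK intron 5), and since the list has no strand, priming on the opposite strand was not tested for them. The A-rich intronic peaks carried AATAAA or ATTAAA in 9.29% of cases (13 of 140) and the A-poor ones in 38.5% (40 of 104, 29.7 to 48.1). Over all genes these shares were 9.60% and 28%. CSTF3 and WDR33 held 15 of the 40, and the share among A-poor peaks was not computed without them.

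**Figure D2:**
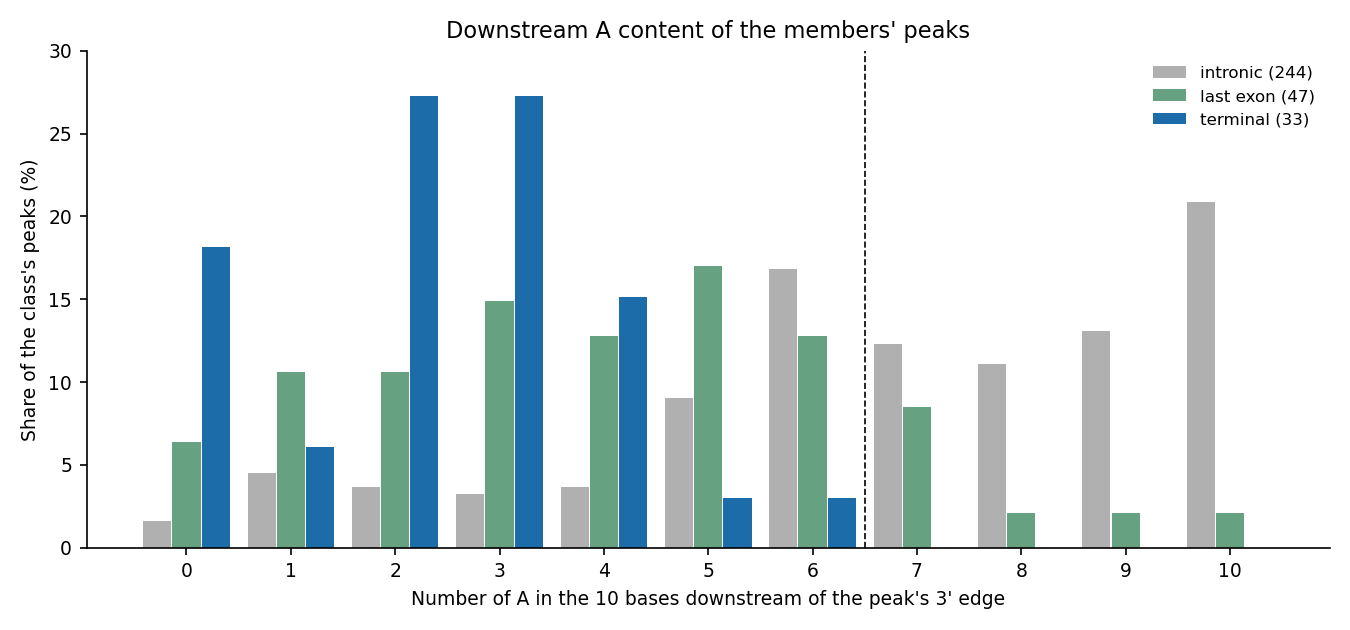
Bars give the share (%) of the members' intronic, last-exon and terminal peaks (vertical axis) with each number of A among the 10 bases downstream of the 3′ edge (horizontal axis), and the dashed line marks the limit for A-rich. All 33 terminal peaks lie left of the line, and 140 of the 244 intronic peaks lie right of it.

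The 40 A-poor intronic peaks with AATAAA or ATTAAA made up 16.4% of the members' intronic peaks (12.3 to 21.6), and 8.88% over all genes. CSTF3 and WDR33 held 15 of the 40, and without these 2 genes the share was 12% (25 of 208, 8.28 to 17.1), an interval that includes the value over all genes. Leaving them out was chosen after their values were seen. AATAAA was present in 26 of them and ATTAAA in 14. For 3 of the 40, 2 in CPSF6 and 1 in PABPC4, the whole coding sequence lies upstream. The hexamer began at a median of 25 bp upstream of the edge. The peaks were spread over 18 of the 33 genes with an intron, whereas 34.8% of all genes with a 3′ end peak and an intron had such a peak. When a −log10 q-value of 20 or more was required, 5 of the 33 kept such a peak (15.2%, 6.65 to 30.9), next to 3.35% of all genes with a 3′ end peak and an intron and none of the 34 genes in the list of other factors. The A limit mattered for some, since 8 of the 40 had 6 A downstream, 1 short of the limit, while 20 had 3 or fewer. Their median pileup was 13.5 (6 to 42), and 11 of them (27.5%, 16.1 to 42.8), in 7 genes, reached 20 or more, as 8.8% of such peaks did over all genes. Transcripts that end there are already annotated for 9 of the 40 (22.5%, 12.3 to 37.5), whose edge lay within 50 bp of a GENCODE transcript end of the same gene, and the share over all genes was 14.4%.

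PCF11 is the CFIIm subunit that binds the C-terminal domain and dismantles the elongating polymerase. The gene lies at chr11:83156988-83187451 on the plus strand of GRCh38 and had 7 peaks. The 3.70 kb first intron held 3 of them, of pileup 10, 28 and 12. The highest, 1.75 kb from the start, had AATAAA 22 bp upstream and no A in the 10 bases downstream. It ended 3 bp from the annotated end of the short transcript PCF11-207, after 64 of the 1686 codons. The next, 2.78 kb from the start, also had AATAAA, 21 bp upstream. At the other end of the gene the last exon gave 29 and the terminal window 26. Both lie in a stretch that overlaps ANKRD42-DT on the opposite strand, and the terminal peak also overlaps PCF11-AS1. The list has no strand, so these pileups may not belong to PCF11 alone. The early peak stood at 1.08 times the terminal one, and the exact interval from the 2 counts, 0.609 to 1.91, includes 1. Without peaks shared with another gene no ratio is left. When every annotated transcript end counts as terminal, the peak of 28 becomes terminal itself and the ratio falls to 0.429 (12 over 28). The remaining peaks, of pileup 29 in exon 5 and 11 in intron 9, were both A-rich downstream, and the one in intron 9 also had AATAAA 10 bp upstream.

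CSTF3 encodes the CstF subunit that bridges the complex. It lies at chr11:33077188-33162371 on the minus strand, and of its 18 peaks 8 were signal-bearing, the most of any member. All 8 were in intron 3, which at 33.2 kb is the longest intron of the gene, and their pileups ran from 8 to 22. None of the 8 reached a −log10 q-value of 20, so at that threshold all were lost. The strongest, at 20.1 kb from the start, had ATTAAA 22 bp upstream and lay 36 bp past the end of the annotated short transcript CSTF3-202, after 75 of 717 codons. The terminal peak had a pileup of 24, so the ratio was 0.917 (0.490 to 1.71). That terminal peak lies in a stretch shared with TCP11L1 on the opposite strand. AATAAA also stood in the signal window read on that strand, and the list has no strand. The pileup of 24 may therefore not belong to CSTF3 alone, and without peaks shared with another gene no ratio is left. The highest peak of CSTF3, of pileup 26, had its summit in exon 2 and was therefore not counted as early. It had neither hexamer and 4 A downstream. Its edge lay 49 bp before the annotated end of CSTF3-205, after 45 codons. In its signal-bearing peaks CSTF3 differed from PCF11, having a series of them over a long intron and not 1 strong peak close to the start.

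RBBP6, a ubiquitin ligase that activates cleavage, lies at chr16:24537693-24572863 on the plus strand and had 11 peaks. Its 2 signal-bearing peaks were in intron 3 (pileup 15) and intron 8 (pileup 30), and both coincided with annotated short transcripts, 21 bp from the end of RBBP6-204 and 2 bp from the end of RBBP6-206. The intron 8 site follows 282 of 1792 codons. With every annotated end counted as terminal, neither is intronic any more. The terminal pileup was 23 and the last-exon pileup 29. An equally high peak in intron 1, of pileup 30, had 8 A downstream and no hexamer, and the highest peak of the gene (39) was in exon 1, where no hexamer was found either. Exon 17 held 4 more peaks, of pileup 16 to 37, with 6 to 8 A downstream each.

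The sequences at these sites are printed to show the signal and the A content behind the classes. The first set runs from the hexamer (capitals), on the strand of the gene, at early and 3′ end peaks, and the last 2 lines show A-rich intronic peaks with the 10 bases downstream of the edge in capitals. The A-rich peak of PCF11 carries AATAAA as well, so the classes are not separated by the hexamer alone. Positions are on GRCh38.
PCF11 intron 1, pileup 28, chr11:83158860-83158889 plus: AATAAAacatataaaatatgtatttgtctt
PCF11 intron 1, pileup 12, chr11:83159887-83159916 plus: AATAAAaaattagcctacttaacagacttt
PCF11 last exon, pileup 29, chr11:83185320-83185349 plus: ATTAAAgaagcaagtttgaggtttcatcct
CSTF3 intron 3, pileup 22, chr11:33141422-33141451 minus: ATTAAAacagtttcaatggtattggagtgc
CSTF3 intron 3, pileup 16, chr11:33138107-33138136 minus: AATAAAagcatatagagaattgattgtttt
CSTF3 terminal, pileup 24, chr11:33084482-33084511 minus: AATAAAtgtcaggacaaggaaaagtcatct
RBBP6 intron 8, pileup 30, chr16:24559770-24559799 plus: AATAAAtaatgttgatgacaagtgttgatc
RBBP6 intron 3, pileup 15, chr16:24549380-24549409 plus: AATAAAaaatgtttggagtgtatattttgc
RBBP6 intron 1, pileup 30, A-rich, chr16:24541183-24541212 plus: aaaaaaaaaacaaaaAAAAAACCAAaaaaa
PCF11 intron 9, pileup 11, A-rich, chr11:83176831-83176860 plus: gtataataaaaaaacAAAAAAAAAAgaagg

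**Figure D3:**
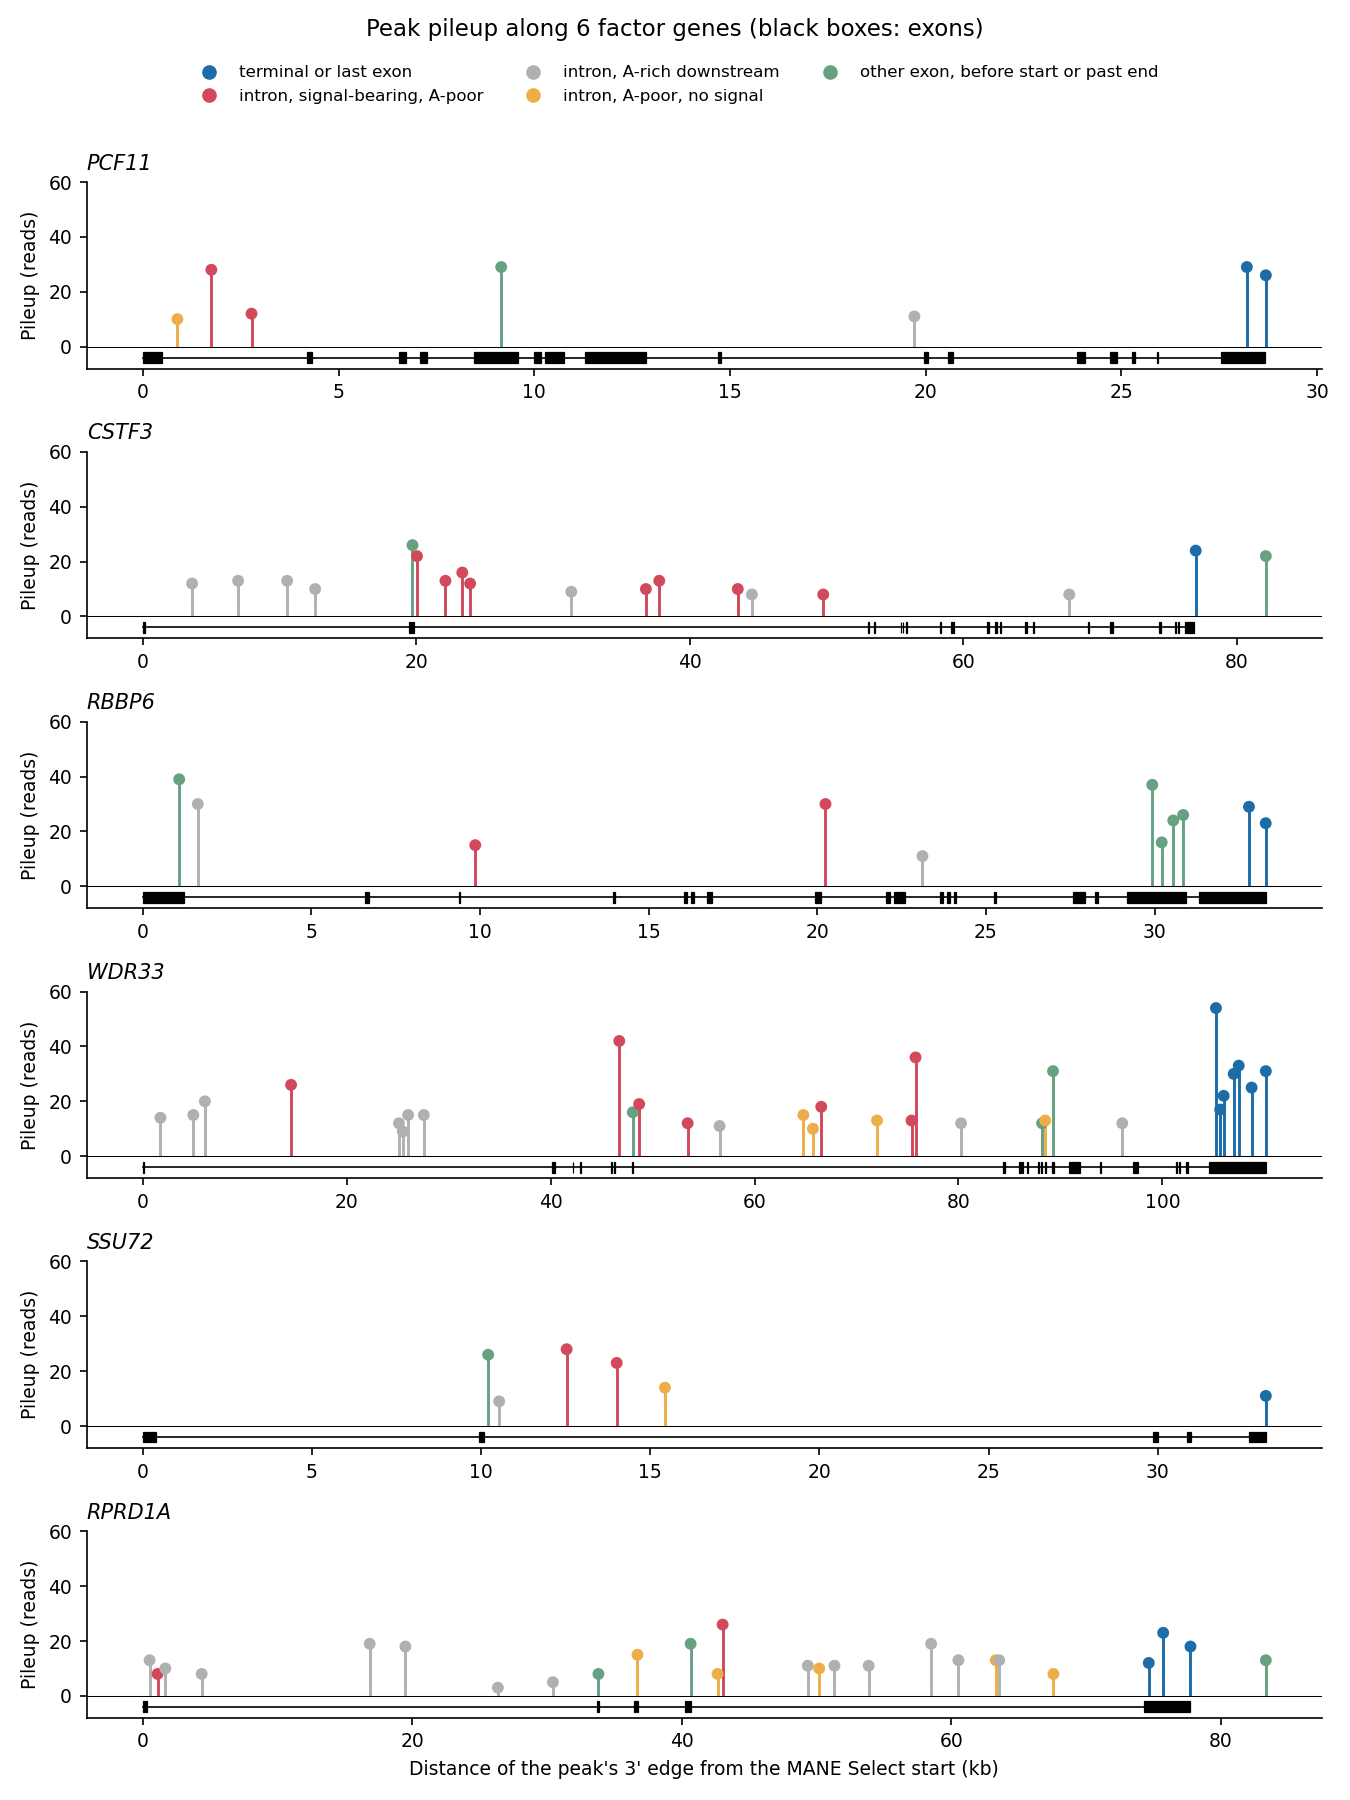
Each panel maps 1 gene (PCF11, CSTF3, RBBP6, WDR33, SSU72 and RPRD1A) from its MANE Select start (horizontal axis, kb), with exons as black boxes and each peak as a line whose height is its pileup (vertical axis, reads). In PCF11 the signal-bearing peak of 28 stands in intron 1, in CSTF3 8 such peaks spread over intron 3, and in SSU72 the peaks of 28 and 23 in intron 2 exceed the terminal peak of 11.

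By the ratio of the strongest signal-bearing intronic peak to the strongest terminal peak, the 5 highest members were SSU72 (2.55), RPRD1A (1.44), WDR33 (1.35), RBBP6 (1.30) and PCF11 (1.08). CPSF2 and CSTF2 stood at 1.00, and the other 9 genes with both kinds of peak were below 1. The intronic value is the highest of up to 8 peaks in a gene, and the terminal value mostly that of a single peak. The median ratio over the 16 was 0.937, and over all genes with both it was 0.550. Only for SSU72 did the exact interval of the ratio (1.23 to 5.67) lie wholly above 1. For 6 of the 16 genes it lay below 1. Against the highest terminal or last-exon peak, the interval lay above 1 for SSU72 alone and below 1 for 10 of 18 genes. Such intervals were not computed over all genes. Set against every terminal and last-exon peak of the gene, the early peak was at least as high in 3 of the 18 genes (SSU72, RPRD1A and RBBP6), next to 13.8% of all such genes.

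SSU72 lies at chr1:1541673-1574863 on the minus strand. Its 19.8 kb second intron held signal-bearing peaks of pileup 28 and 23, at 12.5 and 14 kb from the start. The first had ATTAAA 33 bp upstream and no A downstream, and matched no annotated end. The second had AATAAA 27 bp upstream and lay 8 bp from the end of SSU72-202. Both follow 74 of 194 codons. A further peak, of pileup 26 in exon 2, had neither hexamer.

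WDR33, the CPSF subunit that contacts AAUAAA, lies at chr2:127701027-127811187 on the minus strand and had 31 peaks, the most of any member, of which 21 were intronic and 7 signal-bearing. The highest early peak (42, intron 6) had AATAAA 20 bp upstream but also 6 A downstream, so it would be A-rich at a limit of 6. Intron 7, 36.3 kb long, held 5 more, of pileup 12 to 36. The peak of 36 had AATAAA 26 bp upstream and 3 A downstream, and lay 8 bp from the end of WDR33-202, after 241 of 1336 codons. A peak of 19 at the start of the same intron lay 40 bp from the end of WDR33-204. The terminal peak was 31, and last-exon peaks rose to 54, several of them in a stretch shared with SFT2D3 on the opposite strand.

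RPRD1A, a C-terminal domain binding protein that recruits a Ser5 phosphatase, lies at chr18:35984387-36067576 on the minus strand. Of its 20 intronic peaks 13 were A-rich and 2 signal-bearing. The stronger of these, of pileup 26 in intron 6, had ATTAAA 37 bp upstream and followed 263 of 312 codons. The terminal peak was 18 and the highest last-exon peak 23. These 3 genes gave the following sequences from the hexamer on, shown to compare early with terminal sites.
SSU72 intron 2, pileup 28, chr1:1562340-1562369 minus: ATTAAActctgtgccatgaagcttagcctg
SSU72 intron 2, pileup 23, chr1:1560854-1560883 minus: AATAAAttttggccagttgtcctattagta
SSU72 terminal, pileup 11, chr1:1541664-1541693 minus: AATAAAcagatgctgctgtcattgtgcctg
WDR33 intron 6, pileup 42, chr2:127764432-127764461 minus: AATAAAatctaaagcctacagaaaacaact
WDR33 intron 7, pileup 36, chr2:127735377-127735406 minus: AATAAAacttattatgtattggttttcaga
WDR33 terminal, pileup 31, chr2:127701021-127701050 minus: AATAAAaatttaatttttaaaaaagttcag
RPRD1A intron 6, pileup 26, chr18:36024545-36024574 minus: ATTAAAgcatgtgtaatgaatgaaaacatg
RPRD1A terminal, pileup 18, chr18:35989824-35989853 minus: AATAAAgttttatgttctttttgaaatgtg

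**Figure D4:**
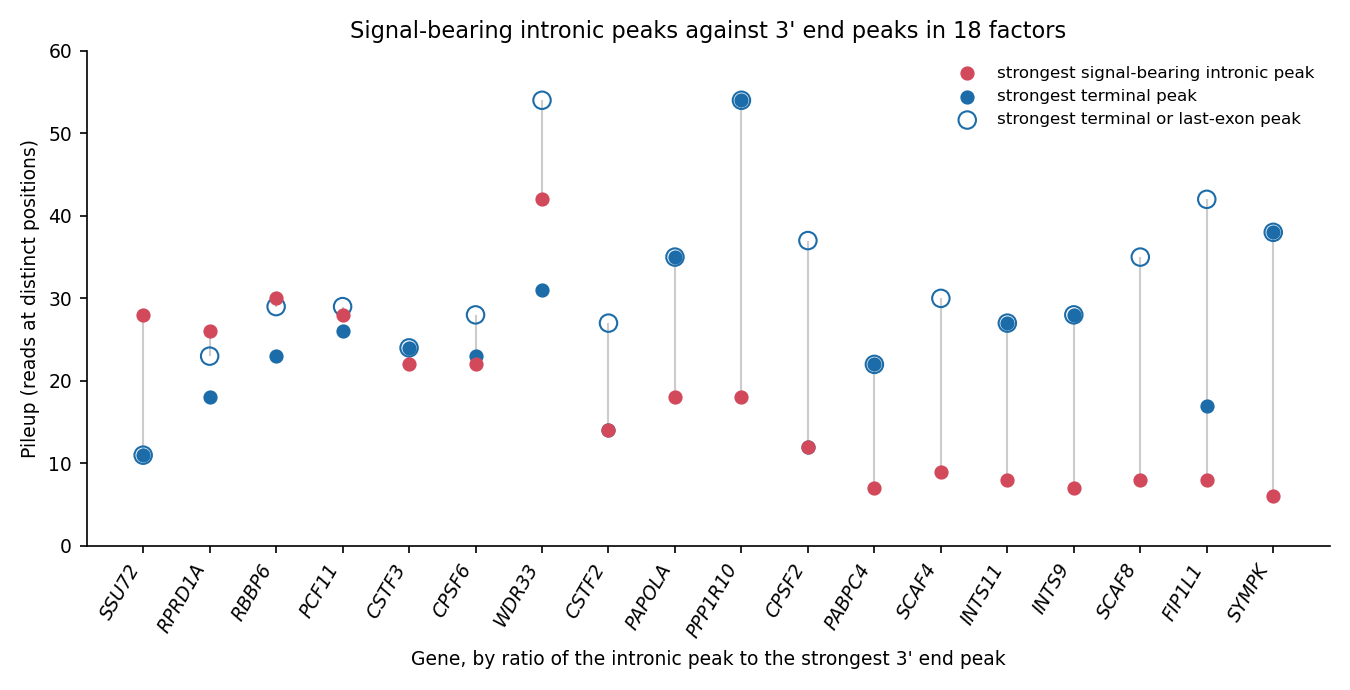
Points give the pileup (vertical axis, reads at distinct positions) of the strongest signal-bearing intronic peak, the strongest terminal peak and the strongest terminal or last-exon peak in each of 18 genes (horizontal axis). The intronic point is the highest in SSU72, RPRD1A and RBBP6, the terminal point lies under it in CPSF2 and CSTF2 where the values are equal, and SCAF4 and SCAF8 have no terminal point.

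Within the complexes the early peaks were unevenly spread. Among the 6 CPSF genes, WDR33 had 7 of the 9. FIP1L1, which brings poly(A) polymerase to the site, had 1 of pileup 8, and CPSF2 had 1 of pileup 12. CPSF1, CPSF3 (the endonuclease) and CPSF4 had none, although CPSF3 had A-poor peaks of pileup 18 and 20 in intron 1 without either hexamer. FIP1L1 also had such a peak, of 28 in intron 17, above its terminal peak of 17 and 36 bp before the end of FIP1L1-206. In CPSF2 a peak of 15 without either hexamer, in intron 5, ended at the annotated end of CPSF2-203. These FIP1L1 and CPSF2 peaks had 6 A downstream each. Every FIP1L1 peak also lies in a readthrough gene of the same strand. Of the 4 CstF genes, CSTF3 had 8 of 9 and CSTF2, the RNA-binding subunit, had 1 of pileup 14 in intron 7. CSTF1 had none, and CSTF2T has no intron in its MANE Select transcript.

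In CFIm all 3 early peaks belonged to CPSF6, a large subunit like CPSF7. A pair in intron 9, the last intron, had pileups of 22 and 21 next to 23 at the terminal peak, and the third, of 18, stood in intron 1 at 1.09 kb from the start. The intron 9 peaks follow the last of the 551 codons, so they lie past the stop codon of the MANE Select transcript. The stronger of the pair and the terminal site are shown from the hexamer on.
CPSF6 intron 9, pileup 22, chr12:69263547-69263576 plus: ATTAAAttaaggctaaacaaacccctcata
CPSF6 terminal, pileup 23, chr12:69274336-69274365 plus: AATAAAacaaacttttgataagactttgca

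CPSF7 and NUDT21 had no signal-bearing intronic peak. NUDT21 had 1 of pileup 15 in intron 4 with AATAAA 15 bp upstream that was A-rich, with 7 A, and that lay 37 bp before the end of NUDT21-202. CLP1, the partner of PCF11 in CFIIm, had no intronic peak at all and a terminal peak of 32.

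PAPOLA, the main nuclear poly(A) polymerase, had 4 signal-bearing peaks among 17. Those in introns 7 and 10, of pileup 18 and 15, ended 1 and 2 bp from PAPOLA-224 and PAPOLA-223, and the terminal peak was 35. SYMPK, the scaffold of the complex, had 1 of pileup 6. PAPOLG, a related polymerase, had 9 intronic peaks, none of them signal-bearing. One higher PAPOLA peak, of pileup 20, was classed as exonic because its summit fell in exon 9, although its edge lay past that exon. It had AATAAA 20 bp upstream and 3 A downstream, and ended 4 bp before the end of PAPOLA-213.

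Of the poly(A) binding proteins, PABPC4 had 1 signal-bearing peak of pileup 7, in its last intron and past the last of its 660 codons, and PABPN1, PABPC1 and ZC3H3 had none. Both cytoplasmic proteins had a high peak close to the start, in exon 1, before the first codon. For PABPC1 it had a pileup of 60 at 123 bp, with 7 A downstream, and for PABPC4 30 at 117 bp, with 8 A. Of the 34 members, 3 had an exonic peak within 500 bp of the start, the third being PAPOLG with 8, and 2.34% of all genes with a terminal or last-exon peak had one. The interval of the members' share, 3.05 to 23%, rests on these 3 genes. PABPN1 lies within the readthrough gene BCL2L2-PABPN1, so its 2 peaks cannot be assigned to 1 of them.

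Among the 8 termination genes, early peaks were found in 4. Beside the 26 and 8 of RPRD1A, PPP1R10 had 1 of 18 in intron 7, SCAF4 1 of 9 in intron 19 and SCAF8 1 of 8 in intron 6. RPRD2 had the most intronic peaks of all members (22), ahead of WDR33 (21) and RPRD1A (20), yet none of the 22 was signal-bearing and 12 were A-rich. The first intron of RPRD2 held 12 of them and the second 4, with pileups of 5 to 23. At its 3′ end RPRD2 had 2 terminal peaks, of 23 and 21, and 4 last-exon peaks of 17 to 27, all 6 of them with AATAAA or ATTAAA. XRN2, the exonuclease that chases the polymerase, had 11, of which 8 were A-rich and none signal-bearing. RPRD1B and WDR82 had none either. WDR82 did have an A-poor peak of 22 in intron 1, 0.748 kb from the start, with neither hexamer.

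The Integrator subunits INTS11, an endonuclease related to CPSF3, and INTS9, its partner, had 1 signal-bearing peak each, of pileup 8 and 7. The highest intronic peak of any member was in intron 4 of INTS11, at 44 against 27 for its terminal peak. It had 1 A downstream but neither hexamer, and ended 57 bp past the annotated transcript INTS11-205. Across the members, 13 of the 29 genes with both (44.8%, 28.4 to 62.5) had an intronic peak of some kind above every terminal peak, and 24% of all genes with both did. Last-exon peaks do not enter this count. The intronic value is the highest of all intronic peaks of a gene. Among genes with a 3′ end peak and an intron, the median number of intronic peaks was 5 in the members and 3 in all genes. Whether this number accounts for the difference was not tested.

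Early peaks were compared with the length of the introns and with a CFIm motif. The 33 genes have 476 introns, of which 116 held a peak and 26 a signal-bearing one. The longest intron of each gene made up 34.6% of the intron length and held 41.4% of the intronic peaks and 42.5% of the signal-bearing ones (17 of 40). Per 100 kb of intron the members had 16.8 intronic peaks and 2.75 signal-bearing ones, and all genes with a 3′ end peak had 12.3 and 1.08. Median gene length was similar, at 37.0 kb for the members and 35.0 kb for all genes. The longest gene, however, was 123 kb among the members and 2474 kb among all genes, and median intron length was 31.9 and 25.4 kb. Taken per gene, the median was 16.0 intronic peaks per 100 kb of intron for the members and 12.6 for all genes. The strongest 3′ end peak had a median pileup of 29 for the members and 24 for all genes. Whether the higher peak density follows from the depth or length of these transcripts was not tested. TGTA within 100 bp upstream of the edge, the DNA form of the motif bound by CFIm, was found at 28 of the 40 signal-bearing peaks (70%, 54.6 to 81.9), compared with 51.4% of such peaks over all genes, 35.7% of the members' A-rich intronic peaks (50 of 140) and 51.5% of their terminal peaks (17 of 33). A motif match describes the sequence and does not show binding.

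The list of 34 other factors was measured in the same way. Its genes had 391 peaks, 236 of them intronic. Of those, 59.7% were A-rich (53.4 to 65.8) and 12.3% signal-bearing (29 peaks, 8.69 to 17.1), in 15 of the 34 genes. The intervals of the members and of this list overlapped for both shares. Per 100 kb of intron it had 16.3 intronic peaks and 2.00 signal-bearing ones. TGTA was found at 44.8% of its signal-bearing peaks (28.4 to 62.5), an interval that overlaps that of the members. In 5 of its 25 genes with both (20%, 8.86 to 39.1) an intronic peak stood above every terminal peak, below the share of all genes, and the interval overlaps that of the members.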

How the data were processed

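Poly(A) 3′-seq (QuantSeq 3′ REV) was performed on 10 IMR-32 libraries. According to the submitters' processing notes and the study's methods, reads were mapped to GRCh38 with STAR 2.5.1b, and MACS2 2.1.1 called peaks on the merged, downsampled reads. The list deposited by the authors gives per peak a fold enrichment over local background, a −log10 p-value, a −log10 q-value and a summit offset. Whole pileups were recovered from the deposited fold and p-value, and missed the −log10 p-value by at most 0.000168. Total reads per library are unknown, so the depth behind a share is the number of peaks. The study used GENCODE 27, and GENCODE 44 was used here. Each peak's 3′ edge on the gene's strand was searched, on that strand, for A content and for AATAAA and ATTAAA or, more broadly, the 12 hexamers that the study searched (these and 10 variants of them), with pysam 0.24.0, numpy 2.4.6, scipy 1.17.1 and pandas 2.3.3 in Python 3.11.15, and plotted with matplotlib 3.10.9. Pileup recovery, classes, motif and A counts were tested on simulated data. Intervals of pileup ratios are exact (Clopper-Pearson) and treat read positions as independent. No test between groups was possible. A rule set which genes had to be described. These were PCF11, CSTF3 and RBBP6, the 5 members with the highest ratio of signal-bearing intronic to terminal pileup, and members without a terminal peak. The 3 members with the most intronic peaks, and those with the 3 highest and 3 lowest terminal pileups, were also included. Other members and single peaks, such as the CPSF6 sites whose sequences are printed, were chosen after their values were seen. The members, lists and the A limit were chosen with earlier results of these data known.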

Additional observations from a re-analysis of the deposited data

How the results depend on the processing

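The 14 main values were recomputed under 14 changes of processing, made one at a time and not each for every value, which gave 112 recomputed values. Of these, 91 stayed within the interval of the share or within 1.5 times the count. The strictest threshold, a −log10 q-value of at least 20, left 51 peaks of the 384, of which 27.5% were terminal and 27.5% intronic. It left 42.9% of the intronic peaks A-rich, 14 members with a terminal peak, 5 with a signal-bearing intronic peak, and 1, 0 and 1 such peaks in PCF11, CSTF3 and RBBP6. With classes from all annotated transcripts, 23.7% of peaks were terminal, 57.8% were intronic and 52.7% of terminal peaks carried a core hexamer. PCF11 then kept 1 signal-bearing peak with a ratio of 0.429, and RBBP6 had 0, because its early peaks lie at ends of short annotated transcripts. A window of 5000 bp past the end raised the terminal share to 13%. An A limit of 6 of 10 gave 74.2% A-rich intronic peaks and a limit of 8 gave 45.1%. With any of 12 hexamers 87.9% of terminal peaks had one, and with the edge placed 50 bp past the summit PCF11 had 1 signal-bearing peak. Without CSTF3 and WDR33, an alternative chosen after seeing the data, 12% of intronic peaks were signal-bearing in place of 16.4%. No ratio could be given where no signal-bearing or terminal peak was left. No paired analysis was possible because reads of the 10 libraries had been merged before peak calling, and for the same reason no replicate could be left out. Depth limits the low peaks most, since pileups of 8 and 11 differ by less than their counting error.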

Other observations

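Among the 34 other factors, which were not members, signal-bearing intronic peaks as high as the terminal peak stood in INTS6 (23 against 16), RPAP2, the Ser5 phosphatase that RPRD1A recruits (15 against 12), and SCAF11 (34 against 32). In SCAF11 alone of these 3 was the early peak also at least as high as every last-exon peak. INTS4 had the most signal-bearing peaks of the list, 5 among 14 intronic peaks, the strongest of pileup 20 next to 30 at its terminal peak. NCBP1, the large subunit of the nuclear cap-binding complex, had 1 of 25 next to 29. These genes were picked after their values were seen, and the values come from the same pooled list, with no replicate check.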
